A study of Rattus norvegicus with 12 samples.

Results

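Genes that break down haem and handle the iron it releases were followed in rat kidney by RNA sequencing. The 9 genes were taken by symbol from the authors' table: Hmox1, Hmox2, Blvra, Blvrb, Fth1, Ftl1, Slc40a1, Tfrc and Cp. They are 9 of 20455 genes with at least 1 read, and all 9 were among the 14664 genes abundant enough to test. Where a symbol stood on several rows, the row with the highest mean was kept. Only Ftl1 was affected, and its other row held at most 6 reads in any library. The study held 12 kidney libraries in 3 groups of 4: sham controls, animals with cardiopulmonary bypass (CPB, circulation through a heart-lung machine) and animals with bypass plus nitrite (CPB+Nitrite), an anion that tissue can reduce to nitric oxide. By the series title the study concerns kidney injury after cardiac surgery. The labels used here give no strain, age, sex, nitrite dose or sampling time. Nothing in them says that replicates of a group are separate animals, so p-values measure only the spread between these samples, which may be technical.

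Haem oxygenase opens the haem ring and releases iron, carbon monoxide and biliverdin, and biliverdin reductase turns biliverdin into bilirubin. Freed iron is stored in ferritin, a shell of heavy and light chains, or leaves the cell through ferroportin with the help of a copper ferroxidase, while transferrin receptor brings iron in. In the kidney, Hmox1 and ferritin are known to respond to haem proteins filtered from the blood. Bypass can lyse red cells and the proximal tubule takes up haemoglobin, but the RNA levels used here do not measure red cell lysis. Ferritin, ferroportin and transferrin receptor transcripts are also known targets of iron regulatory proteins, which act on translation or RNA stability, so RNA levels do not give protein levels.

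The libraries held between 16.8 and 25.8 M reads each (M, mega), and levels below are counts-per-million (CPM) with edgeR's TMM scaling. Levels are compared between libraries and not between genes, since they are not corrected for transcript length. Proximal tubule markers summed to between 6852 and 12220 CPM in every library, and all 12 listed were in the table. The second CPB+Nitrite library stood apart. Its erythrocyte markers summed to 8179 CPM against 496 to 643 CPM in the other libraries of its group, and its endothelial markers to 2821 CPM against 351 to 560 CPM. In whole tissue, fewer cells of a type and less RNA per cell cannot be told apart.

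With bypass, Hmox1, the inducible haem oxygenase, rose most among the 9 genes, and Cp (ceruloplasmin, a copper ferroxidase) and Fth1 (ferritin heavy chain) rose with it. Blvra (biliverdin reductase A) fell. Of the 9 genes, 3 were higher and 1 lower at an adjusted p below 0.05, where 43.2% of all tested genes passed in either direction (21.7% higher and 21.5% lower). A share of 4 in 9 is near that background, so it is not a result about these genes as a set. At an unadjusted p below 0.05 there were 7 of the 9, against 52.6% of all genes, and limma voom called 7 of the 9, against 61.4%. The groups did not overlap for 4 of the 9 genes, against 48.2% of all tested genes. The median log2 change over the 9 was 0.13, beside -0.05 over all genes tested.

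**Figure D1:**
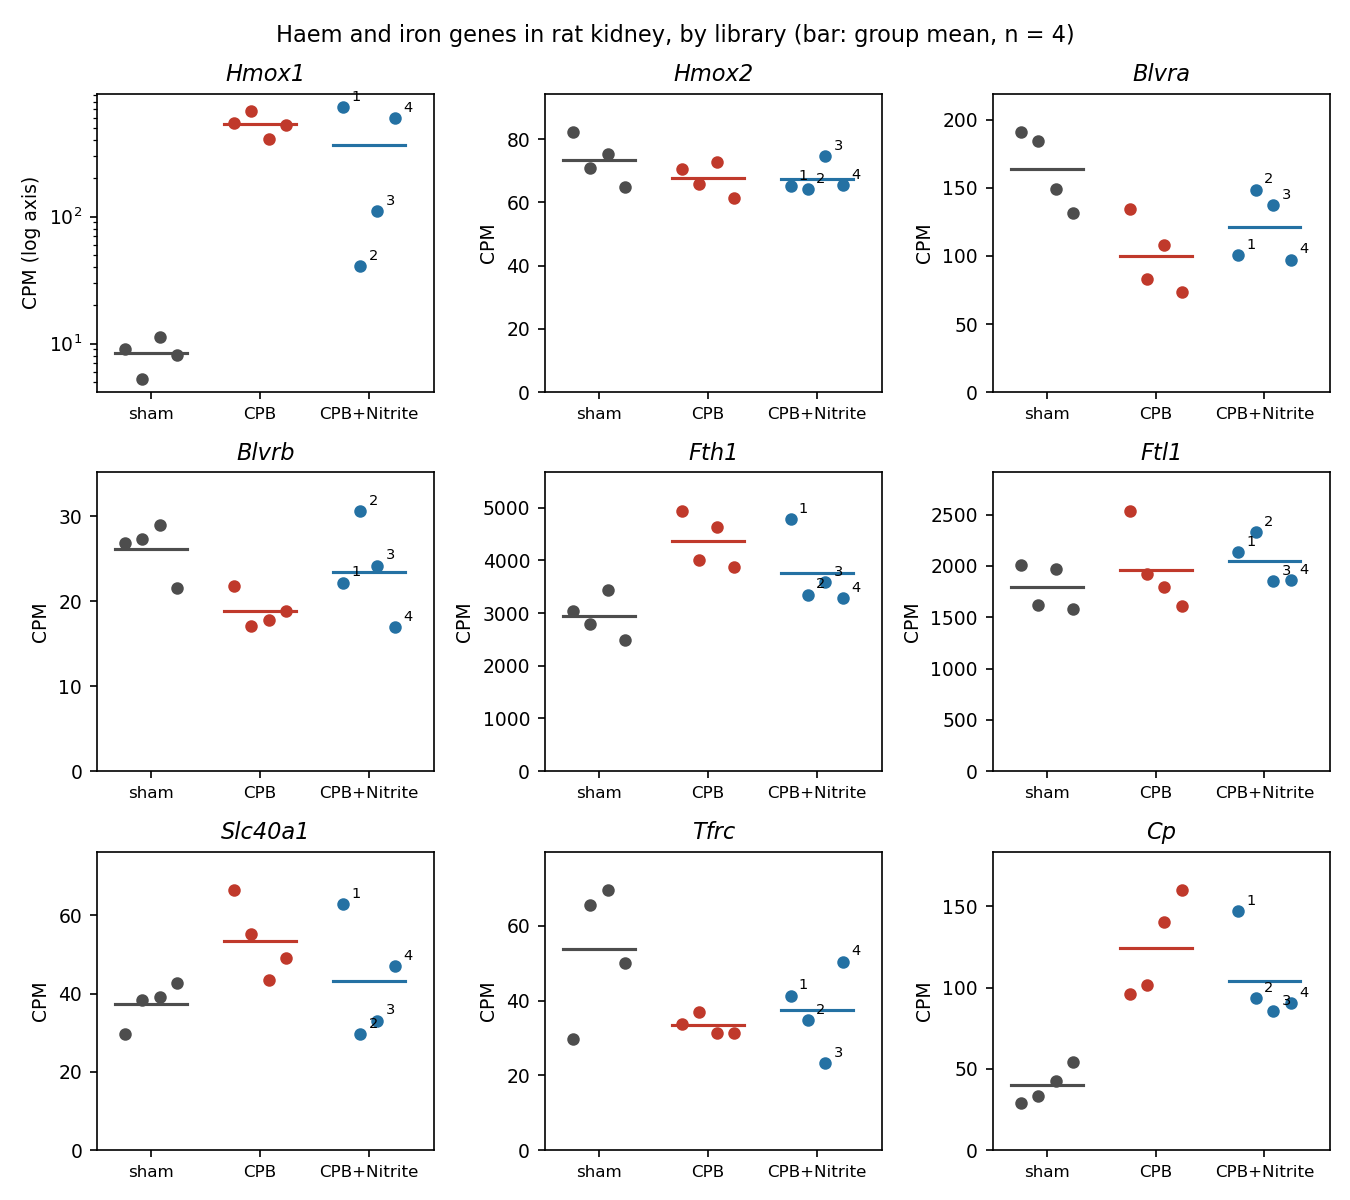
Level of each of the 9 genes in every library (points, CPM; log axis for Hmox1, linear axes from 0 for the others) by group, with horizontal bars at the group mean of 4 libraries and replicate numbers beside the CPB+Nitrite points. Hmox1 and Cp in all CPB and CPB+Nitrite libraries lie above every sham library, and Hmox1 in CPB+Nitrite splits into 2 libraries at 594 and 729 CPM and 2 at 41.0 and 111 CPM.

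Hmox1 (chromosome 19, 13467244 to 13474079, plus strand, build mRatBN7.2) measured 9.01, 5.31, 11.2 and 8.12 CPM in the 4 sham libraries. It measured 548, 674, 410.3 and 531 CPM in the CPB libraries. Every CPB library was above every sham library, and the lowest CPB value lay far outside the sham range. The log2 change was 6.0 ± 0.80 (SE, n = 4 against 4; 95% interval 4.28 to 7.73; edgeR adjusted p = 0.000968), a fitted fold of 64.2. By absolute size it was the 15th largest of the 14664 changes. The call held in all 21 alternative settings, with values from 5.83 to 6.25.

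Hmox2, the constitutive haem oxygenase (chromosome 10, 10797055 to 10831148, minus strand), ran from 64.9 to 82.1 CPM in sham and from 61.4 to 72.7 CPM in CPB. The ranges overlapped, and its log2 difference was -0.12 ± 0.12 (95% interval -0.37 to 0.14; adjusted p = 0.436). The log2 ratio of Hmox1 to Hmox2 counts, which no library scaling can alter, lay between -3.74 and -2.74 in sham and between 2.5 and 3.36 in CPB. All CPB libraries were thus above all sham libraries in the balance of the inducible to the constitutive transcript.

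The reductase Blvra (chromosome 3, 114340838 to 114366033, plus strand) measured 191, 184, 149 and 131 CPM in sham. In CPB it measured 134, 83.1, 108 and 73.1 CPM. The groups overlapped only through the highest CPB and the lowest sham library. The log2 change was -0.72 ± 0.22 (95% interval -1.19 to -0.25; adjusted p = 0.0188). This call was lost when sham 1, sham 2, CPB 2 or CPB 4 was left out, with values of -0.64, -0.66, -0.64 and -0.59 and adjusted p of 0.0535 to 0.0615.

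Blvrb (chromosome 1, 82738695 to 82770375, plus strand), the second biliverdin reductase, which also reduces flavins, measured 26.9, 27.3, 29.0 and 21.5 CPM in sham and 21.7, 17.1, 17.8 and 18.9 CPM in CPB. It missed the threshold by the smallest margin of the 9 genes: the log2 difference was -0.47 ± 0.18 (95% interval -0.86 to -0.08; adjusted p = 0.05001). It passed in 8 of the 21 alternative settings. Its gene model overlaps that of Sertad3 on the same strand, whose mean was 32.8% of that of Blvrb, and how shared reads were divided is not given in the sources used here. The log2 ratio of Blvra to Blvrb overlapped between the groups, at 2.37 to 2.82 in sham and 1.95 to 2.63 in CPB.

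The ferritin heavy chain gene Fth1 encodes the chain that oxidises iron for storage (chromosome 1, 206627103 to 206725424, plus strand). It measured 3032, 2790, 3430 and 2489 CPM in sham and 4927, 4000, 4633 and 3876 CPM in CPB. All CPB libraries were above all sham libraries. The log2 change was 0.57 ± 0.18 (95% interval 0.18 to 0.96; adjusted p = 0.0225). The call was lost with scaling by total counts (0.38, adjusted p = 0.080) and without sham 2, sham 4, CPB 1 or CPB 3 (0.50 to 0.55, adjusted p of 0.0539 to 0.0675).

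Ftl1, the light chain gene, whose product helps iron form a mineral core (chromosome 1, 95936387 to 95939725, minus strand), ran from 1578 to 2007 CPM in sham and from 1608 to 2531 CPM in CPB. Its log2 difference was 0.13 ± 0.18 (95% interval -0.25 to 0.51; adjusted p = 0.560), and its sign turned with total counts and without CPB 1. The log2 ratio of Fth1 to Ftl1 counts was 0.60 to 0.80 in sham and 0.96 to 1.37 in CPB. These ranges did not overlap, and the ratio does not depend on how libraries are scaled. The geometric mean of the ratio was 1.37 times that in sham.

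Ferritin genes have processed copies, so reads could be divided between them. The listed copies were small here: Fth1-ps5 held at most 0.0812% of the heavy chain reads of a library, and Ftl1-ps14 at most 1.37% of the light chain reads. The Fth1 model in the table spans 98322 bases against 2289 in RefSeq's GRCr8 annotation and covers Fads2, Fads3, Rab3il1 and Best1. Each of these had its own row with a mean at or below 0.763% of that of Fth1. Spans also differed between these annotations for Hmox1 (6836 against 27459 bases) and Slc40a1 (17956 against 108007). The same held for Blvrb (31681 against 17664) and Ftl1 (3339 against 1848). The effect of these differences on the counts was not tested.

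Cp (chromosome 2, 102439624 to 102498075, plus strand) encodes ceruloplasmin, which oxidises iron as it leaves cells and is known as an acute-phase protein. It measured 28.8, 33.5, 42.5 and 54.4 CPM in sham and 95.9, 102, 140.4 and 160 CPM in CPB. The lowest CPB library was above the highest sham library. The log2 change was 1.64 ± 0.25 (95% interval 1.10 to 2.18; adjusted p = 0.00107), a fold of 3.13, and it passed in all 21 alternative settings (1.44 to 1.83). The gene model of Cp overlaps that of Hps3 on the opposite strand, whose mean was 10.1% of that of Cp. The liver is the main known source of ceruloplasmin in plasma. Hepatocyte markers summed to 136 to 170 CPM in sham and 67.0 to 154 CPM in CPB, most of it Cyp2e1 (62.3 to 248 CPM over the 12 libraries). Of 6 tested 1 rose, Serpina1 (2.90 ± 0.67, adjusted p = 0.0057), from at most 0.34 CPM in sham to 0.81 to 2.17 CPM in CPB. The marker Alb did not exceed 4.09 CPM and was at 0 in 4 libraries, and Ahsg was at 0 in 10 of 12. Macrophages also express Cp: macrophage markers summed to 51.4 to 120 CPM in sham and 71.7 to 91.9 CPM in CPB. The part of either cell type in the Cp values was not tested.

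Slc40a1 (chromosome 9, 48033526 to 48051481, minus strand) encodes ferroportin, the known iron exporter of cells. It measured 29.6, 38.3, 39.1 and 42.7 CPM in sham and 66.3, 55.1, 43.5 and 49.2 CPM in CPB. The lowest CPB library was just above the highest sham library. Although the groups did not overlap, the log2 difference of 0.52 ± 0.23 did not pass (95% interval 0.02 to 1.01; adjusted p = 0.0829). It passed in 4 of 21 alternative settings, among them the fit without CPB+Nitrite 1 (0.54, adjusted p = 0.0353) and that without CPB+Nitrite 2 (0.52, adjusted p = 0.0473).

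Tfrc (chromosome 11, 68163413 to 68185257, minus strand) encodes transferrin receptor, the entry route of transferrin-bound iron. It measured 29.7, 65.5, 69.5 and 50.1 CPM in sham and 33.8, 37.1, 31.4 and 31.4 CPM in CPB. Sham 1 lay below all CPB libraries, and the other 3 sham libraries lay above them. The log2 difference was -0.68 ± 0.26 (95% interval -1.26 to -0.11; adjusted p = 0.0519). Without sham 1 it was -0.88 ± 0.22 (adjusted p = 0.0145), and it passed in 9 of 21 settings. Sham 1 also had the highest summed adipocyte markers of the 12 libraries (432 CPM against 57.0 to 167 CPM in the others). Its urothelial markers summed to 183 CPM against 2.51 to 53.3 CPM in the other sham libraries. Sham 1 was not the highest of the 12 in these. They summed to 121 CPM in CPB+Nitrite 1 and to 273 CPM in CPB+Nitrite 2, where Psca alone measured 258 CPM. The part of adipocyte and urothelial RNA in the Tfrc value of sham 1 was not tested.

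The log2 ratio of Tfrc to Fth1, iron entry against iron storage, was -6.67, -5.41, -5.63 and -5.63 in sham and lay between -7.21 and -6.75 in CPB. Every CPB library was below every sham library, sham 1 included, although by a narrow margin there.

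**Figure D2:**
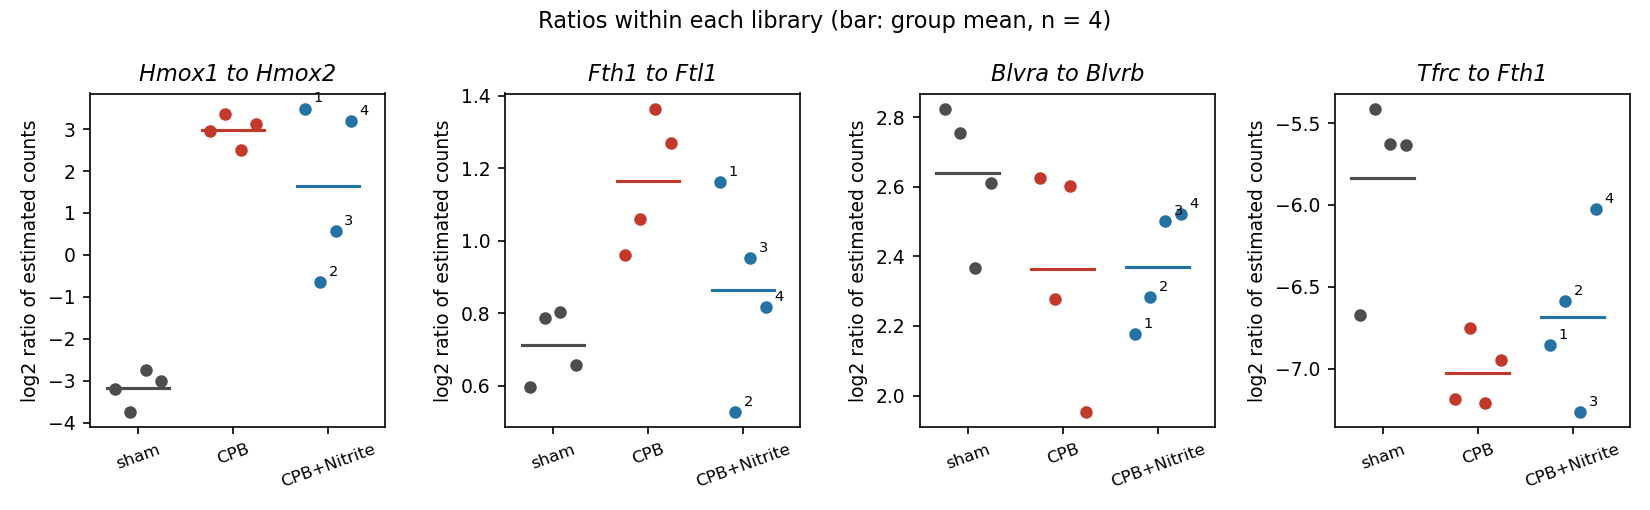
Log2 ratio of counts between 2 genes of a library (points, linear axes) for each of 3 groups, with bars at the mean of 4 libraries. Hmox1 to Hmox2, Fth1 to Ftl1 and Tfrc to Fth1 do not overlap between sham and CPB, while Blvra to Blvrb does.

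The RefSeq promoter windows of build GRCr8 were read for motifs of factors known to act on these genes. Of the 9 genes 6 matched, with 7 promoters; Hmox1, Fth1 and Ftl1 had no entry. Motif letters were sought on both strands over 300 bases around each start, and the capitals below mark the match. The first pair hold the core of the antioxidant response element (TGACNNNGC), to which NRF2 and small MAF proteins bind. They are shown because Blvra and Hmox2 are the only 2 of the 6 genes that hold it. Next is a match to an NF-kappaB motif (GGGA and CC with 4 bases of any kind between them) before Slc40a1. The last is the 250 bases before Tfrc, a known hypoxia target, with the hypoxia response core (ACGTG).
Blvra, chr3:134802754-134802783, plus strand: attaaatatttGCTGGGTCAccgaagtgga
Hmox2, chr10:11337689-11337718, minus strand: agtcttggaagGCAGTGTCAgcttggccag
Slc40a1, chr9:55543534-55543563, minus strand: cagccgggagGGGCGGTCCCggcgctcgcg
Tfrc, chr11:81690319-81690568, minus strand: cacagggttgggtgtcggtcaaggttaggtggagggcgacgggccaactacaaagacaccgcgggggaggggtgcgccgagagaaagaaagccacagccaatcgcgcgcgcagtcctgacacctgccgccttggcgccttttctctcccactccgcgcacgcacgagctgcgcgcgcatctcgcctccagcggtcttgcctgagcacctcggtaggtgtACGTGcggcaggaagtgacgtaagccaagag

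The antioxidant response core stood in 12.1% of all 33469 promoter windows, the hypoxia core in 19.3% and the NF-kappaB letters in 19.3%. Hmox2 also held the hypoxia core, and its second promoter held a STAT motif (TTCNNNGAA), which 8.87% of windows hold. Cp and Blvrb had none of the 4 motifs in these windows. A match describes letters only and shows no binding.

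**Figure D3:**
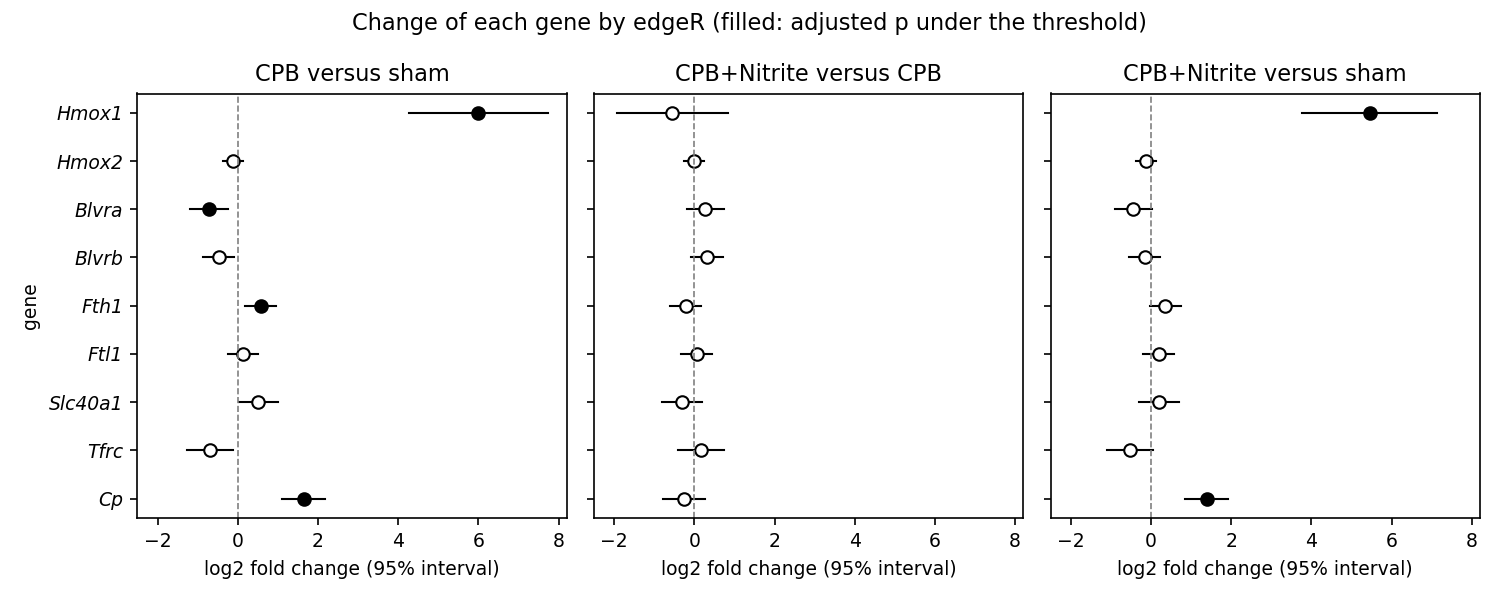
Log2 differences of the 9 genes (points, with 95% intervals from the fit of 12 libraries) in the 3 comparisons on 1 axis. Hmox1 at 6.0 and Cp at 1.64 stand clear of 0 for CPB against sham, and every interval for CPB+Nitrite against CPB includes 0.

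With nitrite added to bypass, none of the 9 genes passed the threshold against bypass alone. By edgeR 0 of the 9 were called, beside 0% of all genes, and 0 of the 9 had an unadjusted p below 0.05, against 29.4% of all genes tested. DESeq2 called 0 of the 9 where it called 15.3% of all genes (2239), and limma voom called 0 of the 9 and 1 gene in all (0.00682%). Without the first CPB+Nitrite library edgeR called 2865 genes (19.3%) and again 0 of the 9. All 9 genes overlapped between CPB and CPB+Nitrite, whereas 12.7% of all genes did not. The median log2 difference of the 9 was -0.01, beside 0.05 over all genes.

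Hmox1 in CPB+Nitrite measured 729, 41.0, 111 and 594 CPM. CPB+Nitrite 1 was above the CPB range of 410.3 to 674 CPM and CPB+Nitrite 4 inside it, while CPB+Nitrite 2 and 3 were below all CPB libraries and above all sham libraries. The coefficient of variation was 93.3% in CPB+Nitrite, 20% in CPB and 29.2% in sham. The log2 difference from CPB was -0.55 ± 0.64 (95% interval -1.94 to 0.83; adjusted p = 0.571), an interval that holds both a large fall and a rise. The log2 ratio of Hmox1 to Hmox2 was 3.49, -0.65, 0.57 and 3.18 in these libraries, so the split remained without library scaling. CPB+Nitrite 2, with the lowest Hmox1 of its group, is the library with the most erythrocyte and endothelial RNA. In CPB+Nitrite 3 those markers summed to 643 and 446 CPM. Their part in the Hmox1 values was not tested.

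The other genes of the set gave narrower intervals. Hmox2 ran from 64.2 to 74.7 CPM in CPB+Nitrite and differed from CPB by -0.01 on the log2 scale (95% interval -0.26 to 0.25). Blvra measured 100.3, 149, 137 and 97.3 CPM, a difference of 0.28 (95% interval -0.19 to 0.74), and Blvrb 22.2, 30.6, 24.2 and 16.9 CPM, a difference of 0.31 (95% interval -0.08 to 0.70). Both reductases were highest in CPB+Nitrite 2.

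Fth1 measured 4785, 3351, 3588 and 3283 CPM with nitrite, a log2 difference from CPB of -0.22 (95% interval -0.60 to 0.17). CPB+Nitrite 1 lay inside the CPB range, and the other 3 libraries lay below it, with CPB+Nitrite 3 also above the sham range. Ftl1 ran from 1853 to 2326 CPM (0.06, 95% interval -0.32 to 0.44). The log2 ratio of Fth1 to Ftl1 was 1.16, 0.53, 0.95 and 0.82, spanning the sham and CPB ranges.

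For iron export, Slc40a1 measured 62.9, 29.7, 33.1 and 47.0 CPM with nitrite (log2 difference from CPB -0.31, 95% interval -0.80 to 0.18). Its 2 highest libraries, CPB+Nitrite 1 and 4, were the same as for Hmox1. Cp measured 147, 93.3, 85.7 and 90.2 CPM (-0.26, 95% interval -0.78 to 0.27), and only CPB+Nitrite 1 was high. Tfrc measured 41.4, 34.9, 23.4 and 50.5 CPM (0.17, 95% interval -0.40 to 0.74), with 1 library below and 2 above the CPB range.

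CPB+Nitrite against sham uses the same sham libraries as CPB against sham, and its values are set beside them. Hmox1 and Cp were the 2 of 9 genes called, both higher, where 4.81% of all genes passed (3.85% higher). The same 2 did not overlap with sham, against 11.5% of all genes. Hmox1 differed by 5.45 ± 0.78 (95% interval 3.77 to 7.13; adjusted p = 0.0145), the 8th largest of all changes, and Cp by 1.39 ± 0.25 (95% interval 0.85 to 1.92; adjusted p = 0.0262). Without sham 1, sham 2, sham 4 or CPB+Nitrite 4 neither passed (Hmox1 5.13 to 5.49, adjusted p of 0.0543 to 0.106; Cp 1.26 to 1.57, adjusted p of 0.0635 to 0.109). Without CPB+Nitrite 1 Hmox1 passed and Cp did not (1.16, adjusted p = 0.0511).

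The other 7 genes gave log2 differences between CPB+Nitrite and sham of -0.12 for Hmox2, -0.44 for Blvra, -0.16 for Blvrb, 0.35 for Fth1, 0.19 for Ftl1, 0.21 for Slc40a1 and -0.52 for Tfrc. Their adjusted p ran from 0.204 to 0.595. The sign of Slc40a1 turned without CPB+Nitrite 1.

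Around these genes, 7 lists of related genes were read in the same fit. Each list's calls are set beside the 21.7% of genes that were higher and 21.5% that were lower with bypass.

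Haem synthesis genes were mostly lower with bypass: 7 of 11 fell and 1 rose, with a median log2 change of -0.66. The genes that fell included Uros (-1.56 ± 0.31, adjusted p = 0.00271), which closes the porphyrin ring, Fech (-1.04 ± 0.21, adjusted p = 0.00304), which inserts iron into it, and Ppox (-1.22). Fech measured 37.6 to 47.7 CPM in sham and 19.0 to 25.9 CPM in CPB. In CPB+Nitrite it measured 24.0, 39.6, 35.7 and 19.7 CPM, so CPB+Nitrite 2 and 3, low in Hmox1, were high in Fech. Alas1, which catalyses the first step and was picked out after its values were seen, was the gene that rose (0.83 ± 0.24, adjusted p = 0.0149; 97.0 to 116 CPM in sham, 141 to 226 CPM in CPB). Proximal tubule markers moved beside this list: 5 of 12 fell, and their sum was 10830 to 12220 CPM in sham and 7573 to 8762 CPM in CPB. Their part in the list's change was not tested.

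Of 13 tested genes for uptake and transport of haem and haemoglobin, 1 rose and 4 fell (median -0.28). Hp, which encodes haptoglobin, the plasma protein that binds free haemoglobin, rose by 2.2 ± 0.42 (adjusted p = 0.00245), from 0.60 to 1.76 CPM in sham to 3.68 to 6.06 CPM in CPB. Neutrophil markers moved beside it, with a sum of 4.88 to 11.8 CPM in sham and 12.8 to 22.6 CPM in CPB. Of 7 tested neutrophil markers 3 rose and 1 fell, and Elane was at 0 in 11 libraries. Their part in the Hp value was not tested. The haem and porphyrin exporter Abcg2 (-0.83), the folate and haem carrier Slc46a1 (-0.92) and the haem exporter Flvcr1 (-0.63) fell. The Slc46a1 call was lost without sham 2, CPB 3 or CPB 4 and the Flvcr1 call in 13 of 21 settings, and the list's total calls ran from 2 (without sham 2, CPB 3 or CPB 4) to 7 over them.

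Among 18 tested genes of iron uptake, reduction, storage and export other than the 9, 7 rose and 2 fell (median 0.15). The metalloreductases Steap4 (1.79 ± 0.39, adjusted p = 0.00455) and Steap1 (2.08 ± 0.53, adjusted p = 0.00941) and the iron chaperone Pcbp1 (0.62) rose. Mcoln1, a lysosomal channel that passes iron, fell by 0.76. Steap4 measured 10.9 to 27.8 CPM in sham and 39.5 to 65.5 CPM in CPB.

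Among 13 tested regulators of iron balance, 4 fell and 0 rose, while the median was 0.10, of the opposite sign to the calls. Aco1, which encodes iron regulatory protein 1 and cytosolic aconitase, fell by 1.30 (SE 0.34, adjusted p = 0.0104), from 372 to 539 CPM in sham to 148 to 252 CPM in CPB. Id1 (-1.02), Smad6 (-0.58) and Hjv (-2.11), which belong to BMP signalling upstream of hepcidin, also fell. Hjv was at most 4.83 CPM in sham, its call was lost without sham 1, 2 or 3 or CPB 2, 3 or 4, that of Id1 without sham 1 or CPB 4, and that of Smad6 in 11 of 21 settings. With 1 library left out the list's calls ran from 1 (without sham 1 or CPB 4) to 5, and there were 2 without sham 2, sham 3 or CPB 3. Hamp, the hepcidin gene, was at 0 in all 4 sham libraries and below the filter.

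Mitochondrial iron import and iron-sulfur assembly gave 7 lower and 2 higher of 18 (median -0.34). The 2 that rose are the mitochondrial iron importers mitoferrin 2 (Slc25a28, 1.19 ± 0.20, adjusted p = 0.00157) and mitoferrin 1 (Slc25a37, 1.40 ± 0.37, adjusted p = 0.0105). Abcb8 (-0.80), a mitochondrial transporter, and Cisd3 (-1.11), an iron-sulfur protein, were among those that fell. The list's calls ran from 5 to 12 over the settings, with 5 without sham 2, sham 3, CPB 2 or CPB 4. The fall in summed proximal tubule markers given for haem synthesis (10830 to 12220 CPM in sham, 7573 to 8762 CPM in CPB) stands beside this list too, and its part was not tested.

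Factors known to act on Hmox1, all but Keap1 transcription factors, were mostly higher: 10 of 12 rose and 0 fell (median 1.44). Atf4, of the integrated stress response, rose by 2.15 ± 0.32 (adjusted p = 0.00107), and the small MAF partners Mafk (1.57) and Mafg (1.05) rose. Bach1, which is known to repress Hmox1 until haem binds it, rose by 2.26 ± 0.44 (adjusted p = 0.00271). Bach1 measured 16.4 to 33.7 CPM in sham and 93.2 to 143 CPM in CPB. In CPB+Nitrite it measured 109, 15.1, 51.4 and 63.5 CPM, again lowest in CPB+Nitrite 2. Bach2, a related repressor, also rose (1.49, adjusted p = 0.0430), and Keap1, which restrains NRF2, did not pass (0.30, adjusted p = 0.124). The list thus holds activators and repressors that moved the same way, so its calls give no joint direction of action on Hmox1.

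NRF2 targets other than Hmox1 were divided: 4 of 8 rose and 1 fell (median 0.47). Srxn1 (2.81 ± 0.61, adjusted p = 0.00432) and Txnrd1 (1.88 ± 0.45, adjusted p = 0.00680), which repair and reduce oxidised thiols, were among those that rose, and Osgin1 fell by 1.59. Txnrd1 measured 866, 153, 268 and 746 CPM in CPB+Nitrite, the order of libraries seen for Hmox1.

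**Figure D4:**
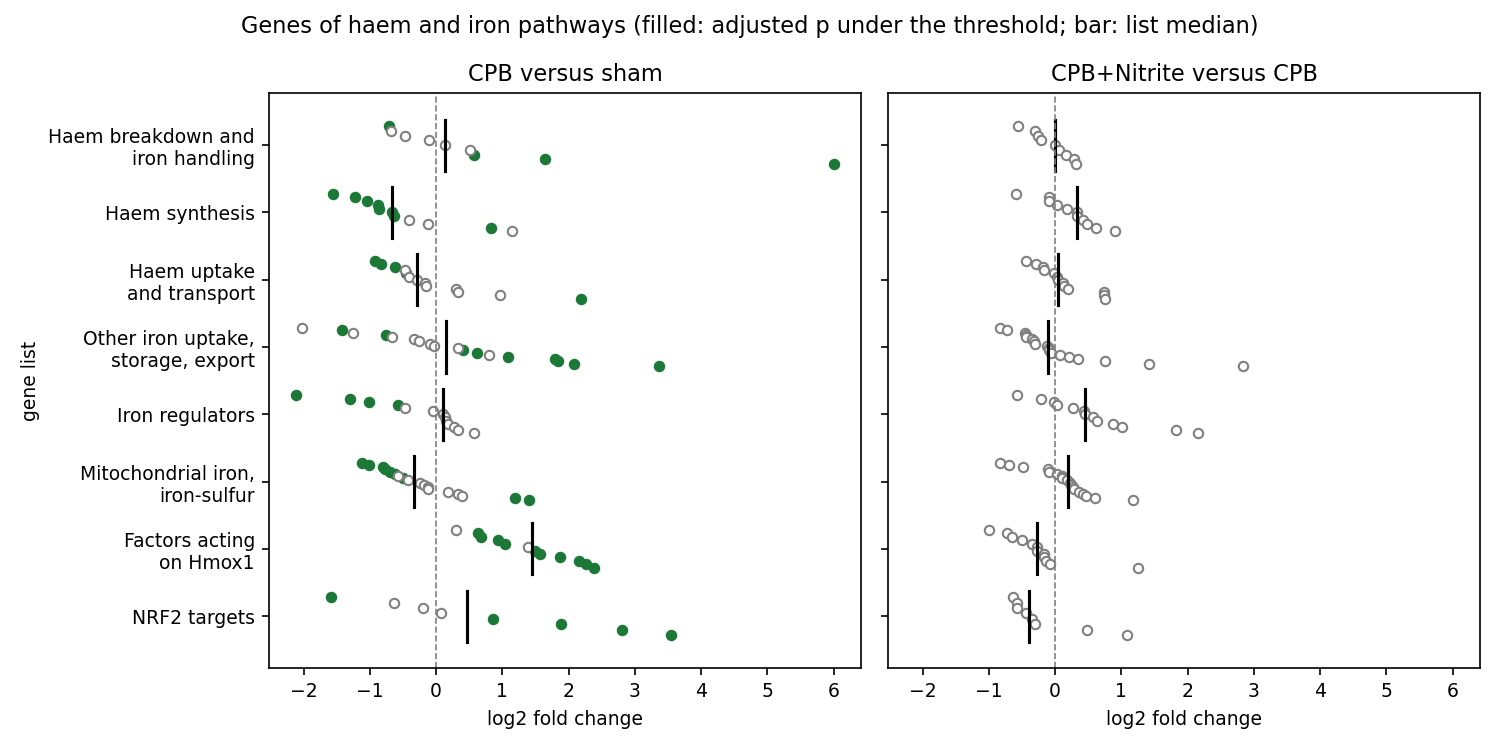
Log2 change of each tested gene (points) in the set of 9 and the 7 related lists for CPB against sham and CPB+Nitrite against CPB, on 1 shared axis, with filled points for genes past the adjusted p threshold and bars at list medians. No point is filled for CPB+Nitrite against CPB. Haem synthesis genes lie mostly below 0 (median -0.66) and Hmox1 regulators above 0 (median 1.44) with bypass.

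Against bypass alone, 0 of the 93 tested genes of the 7 lists passed in CPB+Nitrite by edgeR, beside 0% of all genes. This count rested on CPB+Nitrite 1. Without it 1 gene of haem synthesis, 2 of haem uptake, 5 of iron uptake and storage, 4 of the iron regulators, 4 of the mitochondrial list, 2 of the Hmox1 regulators and 1 of the NRF2 targets passed, where 19.3% of all genes did. Slc48a1, a haem transporter of the lysosome, came nearest with Smad6 in the fit of all libraries (0.74 ± 0.17 and 1.01 ± 0.21, adjusted p = 0.0556 for each). Slc48a1 measured 81.1, 113, 80.9 and 77.4 CPM with nitrite and 43.6 to 62.4 CPM with bypass alone, without overlap. In sham it measured 65.1 to 89.3 CPM, which overlapped the values with nitrite (0.30, edgeR adjusted p = 0.274). Against sham it was among the genes that fell with bypass (-0.45, edgeR adjusted p = 0.0489). For CPB+Nitrite against CPB, DESeq2 called Slc48a1 and Smad6 among other genes of the lists (adjusted p = 0.00456 and 0.00121), as did edgeR without CPB+Nitrite 1 (0.0216 and 0.0158). Against sham, CPB+Nitrite gave 6 calls higher among these 93 genes, where 3.85% of all genes were higher and 0.955% lower. They were Hp (2.0), Steap4 (1.49), Mafk (1.43), Atf4 (1.5), Jun (2.31) and Srxn1 (2.47), and the 1 lower gene was Abcb8 (-0.58). Every one of these 7 calls was lost in at least 8 of 21 settings, and all 7 without sham 1, sham 2, sham 4, CPB 2, CPB+Nitrite 1 or CPB+Nitrite 4. Other libraries raised the counts when left out: without CPB+Nitrite 2 the Hmox1 regulators had 8 calls in place of 3, and without CPB+Nitrite 3 they had 6, the NRF2 targets 6 and iron uptake and storage 6, in place of 3, 1 and 1.

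Genes whose level most resembled that of Hmox1 across the 12 libraries were ranked by Pearson correlation of log2 CPM over 9566 genes with a mean of at least 10 CPM. The points share the 3 groups, so the values describe the libraries only and carry no test. Nearest were Cd14 (r = 0.978), Ube2g2 (0.977), RGD1561149 (0.976), Fndc4 (0.975) and Pla1a (0.975). Cd14, a lipopolysaccharide co-receptor and a macrophage marker, measured 4.69 to 7.61 CPM in sham, 19.5 to 26.7 CPM in CPB and 33.3, 9.42, 15.1 and 26.7 CPM in CPB+Nitrite. The macrophage marker list did not rise with it: 1 of its 9 tested genes was higher (Cd14) and 2 were lower, Csf1r and Mrc1, while Cd163, the haemoglobin scavenger receptor, stayed at or below 1.49 CPM.

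For Cp the nearest genes were Steap4 (0.958), Cpne8 (0.957) and Pla1a (0.946). Those nearest Slc40a1 were Tmem68 (0.934), Plcxd2 (0.924) and Med7 (0.921). Tfrc had no such near match, with Rabep1 (0.768), Hdac2 (0.762) and Ttc14 (0.760) at the top. Pla1a stood among the nearest of both Hmox1 and Cp.

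Erythrocyte RNA, a possible companion of haem load, did not separate sham from CPB. Its markers summed to 740.3 to 1736 CPM in sham and 1096 to 4051 CPM in CPB, and 0 of 5 tested markers passed. Rhag was at 0 in 9 libraries. The highest sum in CPB belonged to CPB 4, whose Hmox1 of 531 CPM lay inside the range of its group. These sums do not measure haem load, and the part of erythrocyte RNA or of haem in the Hmox1 values was not tested.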

How the data were processed

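RNA of 12 rat kidney libraries (4 per group, groups and numbers from the labels) was sequenced. The submitters' processing notes list bcl2fastq 2.19, cutadapt 1.18, Salmon 1.2.1 and R 3.5.1 and the build mRatBN7.2, with no order or options. The authors deposited raw estimated counts for Ensembl genes, 33.1% of the non-zero ones not whole (tolerance 1e-06); they were rounded here. A second deposited table of scaled signal, the counts times 1 factor per library, supplied symbols and positions.

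Genes passing filterByExpr (minimum count 10) numbered 14664. All comparisons came from 1 fit with edgeR 4.0.16 in R 4.3.3 (TMM, glmQLFit, glmQLFTest, two-sided), with Benjamini-Hochberg adjustment over all tested genes at 0.05. The biological coefficient of variation was 0.317, so with 4 replicates spread limits precision more than depth does. The 21 alternatives were other scalings and filters, DESeq2 1.42.0, limma 3.58.1 voom with sample weights, a replicate block, fits of only the groups compared, and leaving out each library. The 9 genes, the lists and the tests were chosen with earlier results of these data known. Named list genes are up to 4 with the smallest p past the threshold (2 where none passed), and nearest genes are the 5 or 3 of highest correlation. Genes named outside this rule are Alas1, Bach2, Keap1, Hamp and those shown for marker levels, chosen after their values were seen. A few genes that the rule allows are not reported here.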

Additional observations from a re-analysis of the deposited data

Results flagged for a closer look

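In 2 of the 39 groups of 4 libraries examined (the 9 genes and 4 ratios in each group), 1 library lay apart from the others, with a gap to its neighbour that Dixon's test puts above its 95% critical value. Chance gives about 1 in 20. Hmox2 measured 74.7 CPM in CPB+Nitrite 3 against 64.2 to 65.4 CPM in the other CPB+Nitrite libraries, a gap of 0.882 of the range. Cp measured 147 CPM in CPB+Nitrite 1 against 85.7 to 93.3 CPM in the others, a gap of 0.877 of the range.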

How the results depend on the processing

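Over the 21 alternatives, 513 of 567 values of the 9 genes kept their direction and side of the threshold, 21 no longer passed, 21 newly passed and 12 changed sign. Leaving out 1 library gave 4692 to 7574 calls for CPB against sham (2 to 7 of the 9 genes: 2 without sham 2, 7 without CPB+Nitrite 2), 0 to 2865 for CPB+Nitrite against CPB (0 of the 9) and 0 to 2976 for CPB+Nitrite against sham (0 to 2 of the 9). Main counts were 6332, 0 and 705. DESeq2 gave 2239 calls for CPB+Nitrite against CPB and 2171 against sham. Limma voom gave 1 and 2870, and 7 of the 9 genes for CPB against sham, as did the fit of only those 2 groups (7). Fitting only CPB+Nitrite and sham gave 0 calls and 0 of the 9 (Hmox1 adjusted p = 0.109). The replicate block gave 28 calls for that comparison, with 1 of the 9 (Cp adjusted p = 0.0544), and 6229 for CPB against sham. The labels used here do not say whether replicate numbers mark a pair or batch. Correlations of same-numbered libraries ran from -0.107 to 0.381, and 5 of 12 libraries correlated best with their own number. These values cannot decide it, since those expected without pairing were not computed. Scaling by total counts moved the all-gene median of CPB against sham from -0.05 to -0.24, and higher genes made up 34.8% of its calls in place of 50.3%.

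Sign changes were all in values near 0. For CPB against sham Ftl1 was -0.047 with total counts and -0.0079 without CPB 1. For CPB+Nitrite against CPB Hmox2 was 0.11 with total counts, 0.028 with the 2 CPM filter, 0.0047 with only the 2 groups, 0.028 without CPB 3, 0.017 without CPB+Nitrite 2 and 0.0049 without CPB+Nitrite 4. Ftl1 was -0.029 without CPB 4 and -0.0085 without CPB+Nitrite 2, and Tfrc was -0.011 without CPB+Nitrite 4. Slc40a1 against sham was -0.044 without CPB+Nitrite 1. With 1 library left out, these differences ran from -0.0079 to 0.22 (Ftl1, CPB against sham), from -0.062 to 0.028 (Hmox2), -0.029 to 0.19 (Ftl1) and -0.011 to 0.33 (Tfrc, all 3 CPB+Nitrite against CPB) and from -0.044 to 0.35 (Slc40a1, CPB+Nitrite against sham). The cause of these shifts was not tested.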
